A study of Mus musculus with 8 samples.

Results

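Called regions of H3K27-me3 were examined at 93 genes of the organic ion, bile acid and ABC transporter families in mouse liver. The genes were chosen by name alone, as the protein-coding GENCODE genes on chromosomes 1 to 19 that belong to the Slco, Slc10a, Slc22a or Abca to Abcg series, out of 20720 protein-coding genes on those chromosomes. They comprised 14 Slco, 6 Slc10a, 25 Slc22a and 48 Abc genes. All mice were male JMJD3-floxed C57BL/6 animals, so that both groups carried the floxed allele. One group received AAV-TBG-Cre at 8 weeks of age, in which the TBG promoter directs the Cre recombinase to hepatocytes, and is described as having liver-specific downregulation of JMJD3, an H3K27 demethylase. The control group received AAV-GFP at the same age, and both were fasted for 16 h at 12 weeks after injection. Each group had 2 H3K27-me3 libraries and 2 input libraries, which makes 8 libraries in all. The labels name primary liver cells and the protocol describes minced liver tissue, so the cell type that carried the mark at a gene is not known. The comparison asks where H3K27-me3 was called after Cre and after GFP. The 2 deposited peak lists each merge both mice of a group, which leaves no value per mouse and no test between groups.

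Organic anion and cation transporters of the Slco and Slc22a families and bile acid transporters of the Slc10a family take up bile acids, hormones, drugs and metabolites from blood, and many are expressed in a single organ. ABC proteins use ATP to move lipids, bile salts, drugs and metabolites across membranes, and in hepatocytes several of them sit on the canalicular membrane and form bile. H3K27-me3 is the product of Polycomb repressive complex 2, is found at genes that are silent in a tissue, and is removed by the demethylases JMJD3 and UTX.

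Promoter sequences are shown for 9 genes that mark the range of calls. RefSeq promoters (GRCm38.p6) were matched for 77 of the 93 genes, and the 250 bases before the start site are printed 5′ to 3′ with CG dinucleotides in capitals, since CpG-rich promoters are where Polycomb marks are usually found. Slc10a4 (chr5:73006654-73006903 on the plus strand), Slc22a17 (chr14:54913133-54913382 on the minus strand), Slc22a3 (chr17:12507705-12507954 on the minus strand) and Slco4a1 (chr2:180460728-180460977 on the plus strand) had the strongest AAV-GFP regions over a start site among genes with a RefSeq promoter. AAV-Cre regions covered all 250 bases of each of these 4 windows, and AAV-GFP regions covered 250 bases of each except that of Slc22a3, where they covered 1 base.
Slc10a4: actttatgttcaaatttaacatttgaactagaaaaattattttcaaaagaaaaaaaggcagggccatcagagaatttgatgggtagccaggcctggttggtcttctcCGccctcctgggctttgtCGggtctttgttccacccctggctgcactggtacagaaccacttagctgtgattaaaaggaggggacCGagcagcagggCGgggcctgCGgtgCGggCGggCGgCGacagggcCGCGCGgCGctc
Slc22a17: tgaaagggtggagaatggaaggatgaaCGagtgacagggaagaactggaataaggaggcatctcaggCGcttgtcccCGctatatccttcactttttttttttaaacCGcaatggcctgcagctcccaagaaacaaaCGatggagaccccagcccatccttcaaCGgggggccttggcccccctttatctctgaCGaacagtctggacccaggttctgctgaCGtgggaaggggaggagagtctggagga
Slc22a3: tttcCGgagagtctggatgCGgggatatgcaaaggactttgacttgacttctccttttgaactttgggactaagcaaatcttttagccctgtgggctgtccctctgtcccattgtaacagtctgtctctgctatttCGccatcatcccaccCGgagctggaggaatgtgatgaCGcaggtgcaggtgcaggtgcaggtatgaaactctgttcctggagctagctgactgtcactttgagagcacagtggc
Slco4a1: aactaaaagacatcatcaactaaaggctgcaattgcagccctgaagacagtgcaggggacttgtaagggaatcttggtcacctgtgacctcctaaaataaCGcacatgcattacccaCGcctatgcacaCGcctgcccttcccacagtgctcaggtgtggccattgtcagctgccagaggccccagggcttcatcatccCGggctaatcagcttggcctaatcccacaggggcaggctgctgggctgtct
Slc10a1 (chr12:80968706-80968955 on the minus strand), Abcb11 (chr2:69342617-69342866 on the minus strand) and Slco1b2 (chr6:141629268-141629517 on the plus strand) are hepatocyte transporters with no called region near the start site in either list.
Slc10a1: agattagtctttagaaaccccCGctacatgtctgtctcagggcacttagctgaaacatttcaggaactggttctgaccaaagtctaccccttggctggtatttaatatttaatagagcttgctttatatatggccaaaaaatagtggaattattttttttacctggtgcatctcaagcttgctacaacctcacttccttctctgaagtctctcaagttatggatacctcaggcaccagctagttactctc
Abcb11: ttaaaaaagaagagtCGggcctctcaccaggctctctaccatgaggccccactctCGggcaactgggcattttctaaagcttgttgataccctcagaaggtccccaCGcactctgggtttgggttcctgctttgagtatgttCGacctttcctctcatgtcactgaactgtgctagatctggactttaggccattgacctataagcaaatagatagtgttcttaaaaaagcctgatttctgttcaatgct
Slco1b2: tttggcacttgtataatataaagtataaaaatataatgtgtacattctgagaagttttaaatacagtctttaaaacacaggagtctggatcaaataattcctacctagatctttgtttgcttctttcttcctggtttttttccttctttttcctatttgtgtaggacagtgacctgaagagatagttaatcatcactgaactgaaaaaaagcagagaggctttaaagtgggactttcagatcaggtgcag
Abcb1b (chr5:8797897-8798146 on the plus strand) and Abcb4 (chr5:8893471-8893720 on the plus strand) are neighbours that differed in their calls, and were chosen after their values were seen.
Abcb1b: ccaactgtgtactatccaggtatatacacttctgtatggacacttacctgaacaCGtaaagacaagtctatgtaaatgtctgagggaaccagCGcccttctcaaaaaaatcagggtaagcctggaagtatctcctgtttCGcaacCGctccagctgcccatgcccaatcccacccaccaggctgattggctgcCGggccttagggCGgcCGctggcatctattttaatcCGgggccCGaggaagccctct
Abcb4: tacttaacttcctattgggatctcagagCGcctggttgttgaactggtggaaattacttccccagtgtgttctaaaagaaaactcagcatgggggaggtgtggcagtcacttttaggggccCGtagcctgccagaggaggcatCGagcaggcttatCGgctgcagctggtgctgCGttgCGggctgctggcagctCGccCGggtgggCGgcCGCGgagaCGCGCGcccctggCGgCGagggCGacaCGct
The 4 windows chosen for an AAV-GFP region over the start held 13, 8, 5 and 4 CG, in the order above. The AAV-GFP region at Slco4a1 was weaker than the others, with a fold of 2.63 and a −log10 q of 2.67. Those of Slc10a1, Abcb11 and Slco1b2, windows without a region, held 1, 4 and 0 CG. Abcb1b, next to AAV-Cre regions, held 9 CG, and Abcb4, which had no region within 15 kb in either list, held 18. The median was 6 CG over all 31396 promoters of that length and also 6 over the 90 promoters of these families. The hexamer AGGTCA, to which many nuclear receptors bind, was searched on both strands and occurred 1 time each in the windows of Slco4a1, Abcb11 and Slco1b2. It was present in 14.4% of the 90 promoters of these families and in 14.1% of all 31396 promoters of the same length.

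Regions within 15 kb of a start site were called at 42 of the 93 genes in AAV-Cre and at 29 in AAV-GFP. That is 45.2% of the genes in AAV-Cre (Wilson 95% interval 35.4 to 55.3, for counting error only), against 43.1% of all 20720 genes, and 31.2% in AAV-GFP (22.7 to 41.2), against 29% of all genes. All 29 genes called in AAV-GFP were also called in AAV-Cre. A further 13 genes (14%) were called only in AAV-Cre, against 15.3% of all genes, and 0 genes only in AAV-GFP, against 1.25% of all genes. The shares of these families were thus near those of all genes, and 51 genes had no region within 15 kb in either list.

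Within 1 kb of a start site, 24 genes had an AAV-Cre region (25.8%, against 24.6% of all genes) and 15 had an AAV-GFP region (16.1%, against 17.1%). The 15 genes in AAV-GFP were again a subset of those in AAV-Cre, which left 9 only in AAV-Cre (9.68%, against 7.81%) and 0 only in AAV-GFP (against 0.294%). Over gene bodies, 37 genes had an AAV-Cre region (39.8%, against 29.8%) and 26 an AAV-GFP region (28%, against 21.4%), with 11 only in AAV-Cre (11.8%, against 9.1%) and 0 only in AAV-GFP (against 0.748%). These genes are long, with a median length of 57129 bp against 17594 bp for all genes, and the part of length in the body counts was not tested. Counting windows and bodies together, 45 genes had a region in either list and 48 had none.

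**Figure D1:**
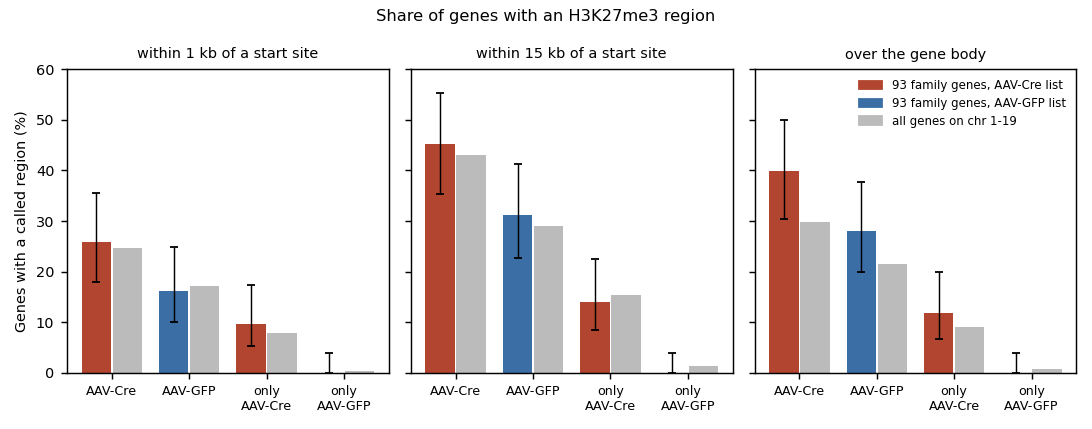
Share of genes with a called H3K27-me3 region within 1 kb or 15 kb of a start site or over the body, in percent, for the 93 family genes (coloured, bars are 95% Wilson intervals for counting error only) and all 20720 genes (grey). Within 15 kb the 45.2% of AAV-Cre and 31.2% of AAV-GFP lie near the 43.1% and 29% of all genes.

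At these genes the AAV-Cre list held 282 regions with a median width of 756 bp, and the AAV-GFP list held 176 with a median width of 202 bp. Together the regions covered 357153 bp in AAV-Cre and 63090 bp in AAV-GFP. The AAV-GFP regions lay almost wholly inside AAV-Cre regions: 157 of 176 (89.2%) overlapped one by at least 1 bp, against 86.3% over all AAV-GFP regions. Of the bases covered in AAV-GFP at these genes, 94.5% were also covered in AAV-Cre, against 93.3% over the whole AAV-GFP list. In the other direction 89 of 282 AAV-Cre regions (31.6%) overlapped an AAV-GFP region, against 24.1% over all. A q-value of 0.05 or lower was given to 259 AAV-Cre regions (91.8%, against 88.5% over the list) and to 69 AAV-GFP regions (39.2%, against 46.8%), and the lists as a whole hold 59267 and 34586 regions whose shortest are 300 bp and 120 bp. The median width over all regions was 753 bp in AAV-Cre and 231 bp in AAV-GFP. Sequencing depth, peak calling and level of the mark cannot be told apart from these files.

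By distance from the gene start, cover was highest in the first 1 kb downstream, at 19.8% of bases for AAV-Cre and 10.5% in AAV-GFP. Over all genes, the corresponding values were 18.5% and 9.73%. Counted by gene, 149 of 283 AAV-Cre regions lay in an intron of the gene, 64 touched one of its exons and 70 lay outside it.

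**Figure D2:**
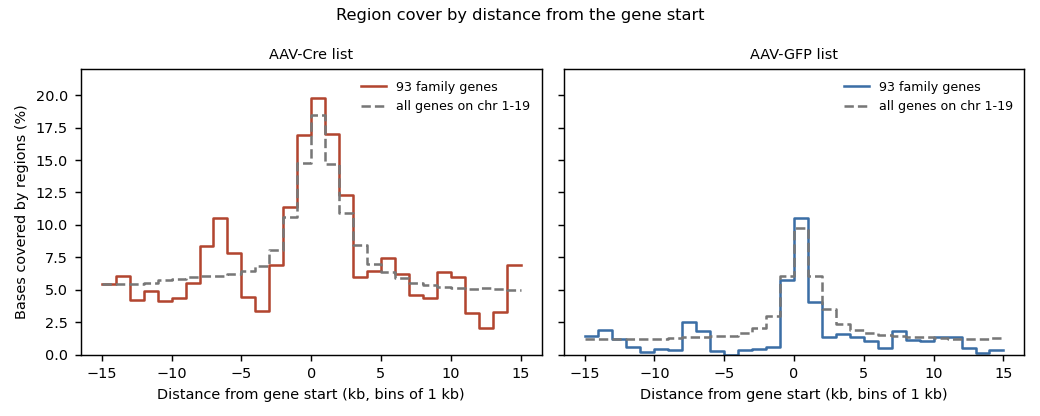
Percentage of bases covered by called regions in bins of 1 kb from 15 kb upstream (negative) to 15 kb downstream of the gene start, for the 93 family genes (solid) and all 20720 genes (dashed), in each list. Both lists peak in the bin after the start, at 19.8% in AAV-Cre and 10.5% in AAV-GFP for the family genes.

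Hepatocyte transporters were described by the membrane they serve. Of 7 uptake carriers, 0 had a region within 15 kb in AAV-GFP and 2, Slc22a7 and Slco2b1, had one in AAV-Cre. The shares over all genes are 29% in AAV-GFP and 43.1% in AAV-Cre. Slc10a1, the sodium-dependent bile acid carrier NTCP, was 28462 bp from the nearest AAV-Cre region and 29808 bp from the nearest AAV-GFP region. The organic anion polypeptide genes Slco1a1, Slco1a4 and Slco1b2 were 168274, 66932 and 76136 bp from an AAV-Cre region and at least 377956 bp from an AAV-GFP region. These 4 carriers also had no region over the body in either list.

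The 2 uptake carriers with an AAV-Cre region had it outside 1 kb. Slc22a7, which carries organic anions, had 1 region of 1448 bp (chr17:46444379-46445826, mm10) that began 5922 bp upstream of a start site and reached a fold of 5.82 over input and a −log10 q of 15.2. It was the strongest region among the 13 genes called only in AAV-Cre, and it touched an exon of the neighbouring Ttbk1. Slco2b1, an organic anion carrier, had 4 regions within 15 kb, the strongest at 1021 bp from a start site with a fold of 3.73 and a −log10 q of 5.83. AAV-GFP regions came no closer than 48561 bp to Slc22a7 and 45532 bp to Slco2b1.

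Among 7 canalicular exporters, 0 had an AAV-GFP region within 15 kb or over the body, where the shares over all genes are 29% and 21.4%. In AAV-Cre 2 of them (28.6%), Abcb1a and Abcg2, had a region within 15 kb and over the body. The AAV-Cre shares over all genes are 43.1% and 29.8%. Abcb11, the bile salt export pump, was 202273 bp from an AAV-Cre region and 241661 bp from an AAV-GFP region. Abcc2, which exports conjugates, was 104513 and 128083 bp away, and Abcb4, which moves phosphatidylcholine into bile, 40505 and 273123 bp. The sterol exporters Abcg5 and Abcg8 were 44187 and 38287 bp from an AAV-Cre region and 169246 and 163346 bp from an AAV-GFP region. Abcb1a, a P-glycoprotein that exports drugs, had 2 AAV-Cre regions within 15 kb, 1 of them 218 bp from the start with a fold of 3.11 and a −log10 q of 3.75. Abcg2, which exports drugs and urate, had 1 AAV-Cre region of 553 bp at 5431 bp from a start site, with a −log10 q of 1.24, which is a q-value of 0.057.

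Of the 4 exporters from hepatocytes to blood, 1 had broad calls and 3 had few or none. Abcc4, a carrier of bile acids and cyclic nucleotides, had 11 AAV-Cre and 3 AAV-GFP regions within 15 kb. Abca1, which loads cholesterol onto apolipoprotein A-I, and Abcc3, a carrier of conjugated bile acids, had none in window or body, and Abcc3 came closest with an AAV-Cre region at 15851 bp and an AAV-GFP region at 19839 bp. Abcc6 had 1 AAV-Cre and 2 AAV-GFP regions over its body, the nearest to the start at 61620 and 60921 bp. Over the 18 genes of these 3 hepatocyte groups, 5 (27.8%) had an AAV-Cre region within 15 kb and 1 (5.56%) an AAV-GFP region. Over the other 75 genes, 37 (49.3%) had an AAV-Cre region and 28 (37.3%) an AAV-GFP region. The shares within 15 kb over all genes are 43.1% and 29%. Over the body, 27.8% of the 18 genes were called in AAV-Cre and 11.1% in AAV-GFP, where the shares over all genes are 29.8% and 21.4%. The difference between the groups of genes was not tested.

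Regions of both lists within 1 kb of a start site were found at 15 genes (16.1%, against 16.8% of all genes). Among them were genes known from brain, kidney, pancreas and muscle, and also Abcc4 of the hepatocyte export group. Slco1c1, Abca3 and Abca12, grouped with genes of brain, lung and skin, had no region within 1 kb in either list. Abcg4, a sterol transporter of brain, had the strongest AAV-Cre region of all 93 genes. It spanned 3515 bp (chr9:44286283-44289797) over the start and the adjoining exon, with a fold of 15.4 and a −log10 q of 77.0, in the top 0.106% of the AAV-Cre list. Its AAV-GFP region over the start was 1929 bp wide, with a fold of 3.89 and a −log10 q of 12.7. Slc10a4, a protein of synaptic vesicles, had an AAV-Cre region of 3518 bp (chr5:73004706-73008223) with a fold of 14.6 and a −log10 q of 71.0. Its AAV-GFP region of 1813 bp had a fold of 5.71 and a −log10 q of 18.9, the strongest over a start site in that list among these genes. Slc22a17, a receptor for lipocalin 2, had an AAV-Cre region of 5472 bp (chr14:54909585-54915056) with a −log10 q of 70.0 and an AAV-GFP region of 1740 bp with a −log10 q of 12.1. At each of these 3 genes the AAV-GFP region lay within the AAV-Cre region.

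Abcg1, which passes cholesterol from macrophages to HDL, and Slc22a3, the organic cation carrier OCT3, also had regions over the start in both lists. Those of Abcg1 were 3982 bp wide with a −log10 q of 33.4 in AAV-Cre and 1473 bp wide with a −log10 q of 10.2 in AAV-GFP. Those of Slc22a3 were 3492 bp wide with a −log10 q of 22.1 and 1341 bp wide with a −log10 q of 6.93. Abcc8 and Abcc9 encode the sulfonylurea receptors, which are subunits of ATP-sensitive potassium channels in beta cells and in muscle. The region of Abcc8 was 2362 bp wide in AAV-Cre (−log10 q 13.6) and 1080 bp in AAV-GFP (4.88), and that of Abcc9 was 2206 bp (35.6) and 782 bp (2.28).

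Some of the AAV-GFP regions at these 15 genes were weak. At Abcc1, which exports glutathione conjugates, the AAV-GFP region over the start had a q-value of 0.92 and a second one, 968 bp from the start, a q-value of 0.047, whereas the AAV-Cre region there was 3023 bp wide with a −log10 q of 28.7. Over the starts of Slco3a1, a prostaglandin carrier, and Abca15 the AAV-GFP regions had q-values of 0.34 and 0.17. Slco5a1 had AAV-GFP regions over start sites with q-values of 0.18 and 0.86 and a stronger one of 175 bp with a q-value of 0.011 at 384 bp upstream. Slco4c1, a carrier of kidney, had an AAV-Cre region of 3346 bp (−log10 q 27.7) and an AAV-GFP region of 962 bp (−log10 q 2.16). The lists hold peaks with q-values up to 1, and a call is therefore not a call at a fixed q-value.

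In all 29 genes called in both lists within 15 kb, AAV-Cre regions covered more of the window than AAV-GFP regions, with medians of 14.3% and 3.99%. Larger cover in AAV-Cre was a property of the lists, which cover 73313622 bp in AAV-Cre and 14838020 bp in AAV-GFP. Among genes with a region within 15 kb in a list, the median cover was 11.5% and 3.99% in these families. Over all genes it was 10.5% and 3.55%. Slco4a1, a carrier of thyroid hormone and prostaglandins, had the widest cover of its body (chr2:180456245-180474867). There 3 AAV-Cre regions of 6455, 5698 and 4313 bp covered 16466 of 18623 bp (88.4%), and 13 AAV-GFP regions covered 6078 bp (32.6%). The strongest AAV-Cre region had a fold of 11.1 and a −log10 q of 46.1, and the strongest AAV-GFP region a fold of 3.96 and a −log10 q of 7.04. A single AAV-Cre region here overlapped up to 7 AAV-GFP regions, so the count of regions was higher in AAV-GFP while the cover was higher in AAV-Cre.

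Abcc4 (chr14:118482692-118706219) is 223528 bp long and had more AAV-Cre regions over its body than any other of the 93 genes. Its body held 31 AAV-Cre regions that covered 53624 bp (24%) and 17 AAV-GFP regions that covered 5358 bp (2.4%). The window within 15 kb of its start sites was covered to 65.1% in AAV-Cre and to 4.1% in AAV-GFP. The AAV-Cre region over its start was 4592 bp wide with a fold of 7.30 and a −log10 q of 32.2. The AAV-GFP region beside the start was 880 bp wide, at 137 bp, with a fold of 3.80 and a −log10 q of 7.91.

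Abcd2, which imports very long-chain fatty acids into peroxisomes, had 50.2% of its window covered in AAV-Cre and 11% in AAV-GFP, with 11 and 8 regions. After Slco4a1 the largest body covers in AAV-Cre were those of Slc22a17 (58.8%), Slc10a4 (46.7%), Slc22a26 (41%) and Abcg4 (32.1%). The same 5 genes led in AAV-GFP, at 32.6% for Slco4a1, 24.3% for Slc10a4, 16.6% for Slc22a17, 10.4% for Abcg4 and 8.38% for Slc22a26. Cover of at least 10% of the body was reached by 13 genes in AAV-Cre (14%, against 16.1% of all genes) and by 4 in AAV-GFP (4.3%, against 6.16%).

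**Figure D3:**
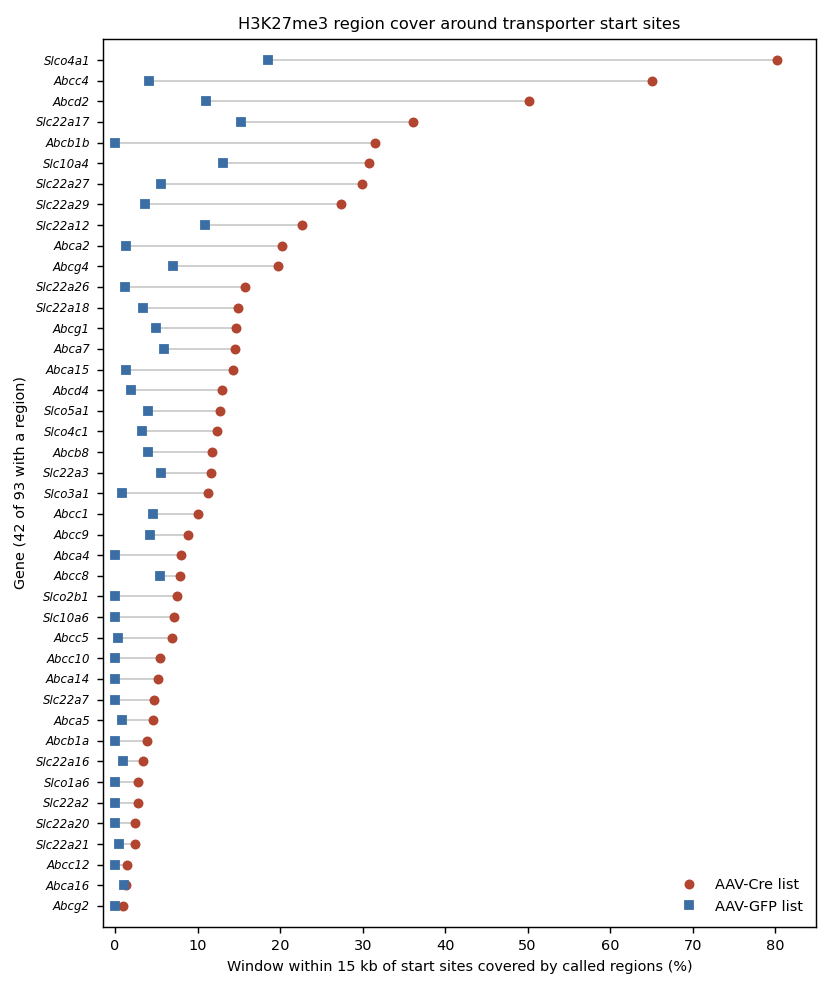
Percentage of the window within 15 kb of start sites covered by called regions for each of the 42 genes with a region, in AAV-Cre (circles) and AAV-GFP (squares), joined by a line. Cover was higher in AAV-Cre at all 29 genes called in both lists. The other 13 had no AAV-GFP region in the window, so their direction follows from the call. Cover ran from 80.2% against 18.5% at Slco4a1 down to 0.922% against 0 at Abcg2.

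The 13 genes called within 15 kb only in AAV-Cre were Abca4, Abca14, Abcb1a, Abcb1b, Abcc10, Abcc12, Abcg2, Slc10a6, Slc22a2, Slc22a7, Slc22a20, Slco1a6 and Slco2b1. Their strongest regions had −log10 q values from 1.24 to 15.2 with a median of 3.75, and 7 of the 13 rested on 1 region. Of the 13 genes, 12 had a region at a q-value of 0.05 or lower, the exception being Abcg2. No direction of change is read from these calls, since a gene with a weak region can miss a call in the smaller list.

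Abcb1b had the widest cover among the 13. Its window held 11 AAV-Cre regions over 9447 bp (31.5%), and its body (chr5:8798147-8866315) held 15 over 10132 bp (14.9%), whereas AAV-GFP regions came no closer than 177592 bp. The strongest of the 11 lay 668 bp upstream of the start (chr5:8796243-8797518), with a fold of 4.73 and a −log10 q of 9.85. Abca4, which clears retinoids from photoreceptor discs, had 4 AAV-Cre regions. The strongest spanned 1322 bp over a start site with a fold of 4.12 and a −log10 q of 7.10, and AAV-GFP regions came no closer than 426343 bp.

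Abca14 had an AAV-Cre region of 1550 bp that began 279 bp downstream of the start, with a fold of 3.73 and a −log10 q of 5.83, and AAV-GFP regions only deep in the body, 34538 bp or more from the start. Slc10a6, a carrier of sulfated steroids, had 3 AAV-Cre regions, 1 of them over the start with a fold of 2.60 and a −log10 q of 2.07, and its nearest AAV-GFP region was 26181 bp away. Abcc12 had 1 AAV-Cre region in the window and 10 over the body that covered 8.33% of it, and 0 AAV-GFP regions in either.

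The 9 genes with a region within 1 kb only in AAV-Cre were Abca4, Abca14, Abcb1a, Abcb1b, Abcc5, Slc10a6, Slc22a16, Slc22a21 and Slc22a29. Of these, Abcc5, Slc22a16, Slc22a21 and Slc22a29 had AAV-GFP regions farther out, at 13860, 14605, 1093 and 2650 bp from a start site. Abcc5, which exports cyclic nucleotides, had an AAV-Cre region of 691 bp over a start site with a fold of 3.87 and a −log10 q of 7.94. At Slc22a16, a carnitine carrier of testis, the AAV-Cre region over the start was 450 bp wide with a q-value of 0.056. At Slc22a21, a carnitine carrier, the AAV-GFP region at 1093 bp was 131 bp wide with a q-value of 1 and lay under an AAV-Cre region of 718 bp. Slc22a29 had 11 AAV-Cre and 4 AAV-GFP regions within 15 kb, almost all of them upstream of the gene.

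Transporter genes form clusters, and 32 of the 93 genes lay in 7 clusters of 3 or more with gaps of at most 500 kb. Regions counted here as between the transporter genes lay outside their bodies and may lie at other genes, which were not considered. On chromosome 5, the 299155 bp from Abcb1a to Abcb4 held 31 AAV-Cre regions over 23050 bp (7.71%) and 0 AAV-GFP regions. Of the 31 regions, 15 lay over Abcb1b, 6 over Abcb1a, 10 between the transporter genes and 0 over Abcb4. On chromosome 19, 955239 bp with 8 organic anion transporter genes, from Slc22a19 to Slc22a6, held 92 AAV-Cre regions (9.42% of bases) and 59 AAV-GFP regions (1.36%). Of these, 57 AAV-Cre and 32 AAV-GFP regions lay between the transporter genes. The others lay over Slc22a26, Slc22a27 and, in AAV-Cre, Slc22a29, while Slc22a19, Slc22a28, Slc22a30, Slc22a8 and Slc22a6 had none over the body. Slc22a27 alone held 27 AAV-Cre regions over 26% of its body and 19 AAV-GFP regions over 3.36%.

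On chromosome 6, the 1177948 bp from Slco1c1 to Abcc9 held 15 AAV-Cre regions (1.68%) and 13 AAV-GFP regions (0.461%). Of these, 13 and 11 lay between the transporter genes. Of the 6 Slco1 genes in this cluster, Slco1a6 had 1 AAV-Cre region and the other 5 had none in either list. On chromosome 17, Slc22a2, an organic cation carrier of kidney, had 5 body regions in each list. Abca14, Abca15 and Abca16 on chromosome 7 shared 22 AAV-Cre and 20 AAV-GFP regions. The carnitine cluster of Slc22a5, Slc22a21 and Slc22a4 on chromosome 11 held 2 and 1, and the lipid transporters from Abca8b to Abca5, also on chromosome 11, held 0 in both. Abca5, at the end of that cluster, had 3 AAV-Cre regions and 1 AAV-GFP region within 15 kb, upstream of the gene and outside the span, the nearest at 5781 and 6962 bp.

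**Figure D4:**
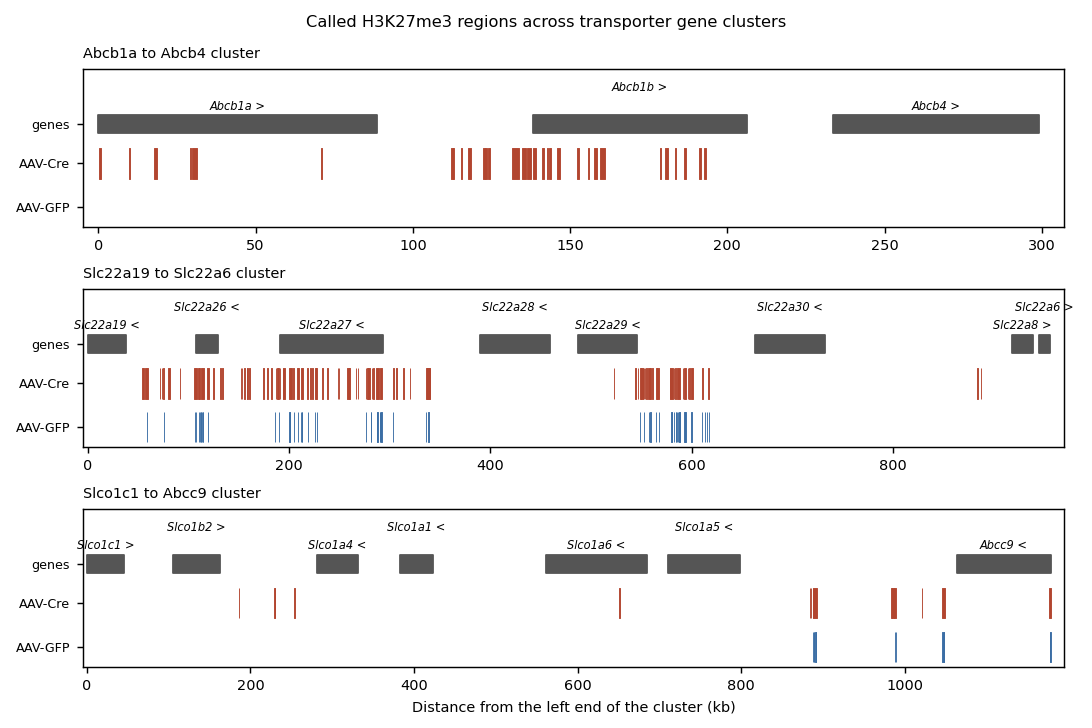
Called regions of AAV-Cre and AAV-GFP (ticks, drawn to scale) and gene bodies (grey, with the direction of transcription) across 3 clusters, by distance in kb from the left end of each cluster. The Abcb1a to Abcb4 cluster shows 31 AAV-Cre and 0 AAV-GFP regions, and most Slco1 bodies are free of regions.

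Grouped by role, the genes of intestine or kidney had 3 of 6 called within 15 kb in AAV-Cre and 2 in AAV-GFP. Slc22a12, the urate transporter of kidney, and Slco4c1 were called in both lists and Slc22a2 only in AAV-Cre, and Slc10a2, the ileal bile acid carrier, was 610975 and 208568 bp from a region. Slc22a12 had 0 regions over its body, and its strongest region in each list lay outside it, over exons of Nrxn2. Of the carnitine and cation carriers, Slc22a3 and Slc22a21 were called in both lists and Slc22a4 and Slc22a5 in neither. Genes of brain, eye, lung, skin and endocrine cells had 4 of 7 (57.1%) called in AAV-Cre and 3 (42.9%) in AAV-GFP. Abca3, Abca12 and Slco1c1 were called in neither. For comparison, 43.1% of all 20720 genes had an AAV-Cre region within 15 kb, and 29% had an AAV-GFP region. The role groups named here hold 7 genes or fewer, and none was tested against these shares. Among peroxisomal transporters, Abcd2 and Abcd4 were called in both lists and Abcd3 in neither. The ribosome recycling factor Abce1 and Abcf1, Abcf2 and Abcf3, which act in translation and carry no substrate, had 0 regions in window or body in either list.

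A window of 15 kb can hold regions of a neighbour. All regions within 15 kb lay closer to the start of another gene at Abca2, Abcb8 and Slc22a20 in AAV-Cre, and at Abca2, Abca7, Abcb8 and Slc22a18 in AAV-GFP. At Abca7, a lipid transporter of microglia, the AAV-Cre region (−log10 q 47.1) and the AAV-GFP region (24.2) lay over the start of Cnn2. At the mitochondrial Abcb8 the strongest regions touched exons of Atg9b, and at Slc22a12 they touched exons of Nrxn2. Counted by gene, 125 of 146 AAV-Cre regions and 81 of 99 AAV-GFP regions within 15 kb had the named gene as the closest start.

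The CpG content within 1 kb of start sites, as the ratio of observed CG to that expected from the C and G counts, was lower at these genes than at all genes, with medians of 0.362 and 0.471. Genes with a region within 1 kb in both lists had a median of 0.538 over 15 genes, close to the 0.528 of all genes of that class. Those called only in AAV-Cre had 0.415 over 9 genes, against 0.329, and those called in neither had 0.287 over 69 genes, against 0.468. In the 250 bases before RefSeq start sites, 10 promoters of 8 genes called in both lists had a median of 12.5 CG (range 4 to 35). For 8 promoters of 8 genes called only in AAV-Cre it was 7.5 (0 to 17). For 72 promoters of 61 genes called in neither it was 4.5 (0 to 35). These ranges overlap, the median over all promoters was 6, and the difference between classes was not tested.

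**Figure D5:**
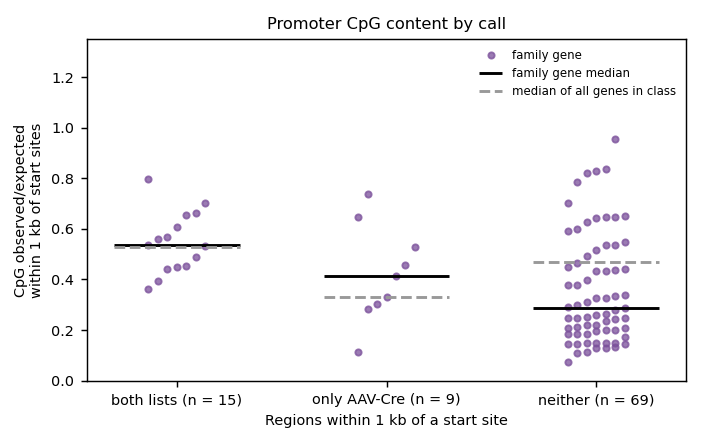
Observed over expected CpG within 1 kb of start sites for each family gene (points) by the lists with a region within 1 kb, with the family median (solid) and the median of all genes of the class (dashed). The family medians are 0.538 in both lists, 0.415 only in AAV-Cre and 0.287 in neither.

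Of 31 other genes of bile acid synthesis, sensing and transport, 5 were called within 15 kb in AAV-Cre and 3 in AAV-GFP, where the shares over all genes are 43.1% and 29%. Fgf15, the ileal hormone that restrains bile acid synthesis, was covered over 100% of its body in AAV-Cre and 45.9% in AAV-GFP. Slc51a, a subunit of the basolateral bile acid exporter, and the peptide transporter Slc15a1 were also called in both lists, and Slc51b, the partner of Slc51a, and the chloride channel Cftr only in AAV-Cre. The remaining 26, among them Cyp7a1, the rate-limiting enzyme of bile acid synthesis, and the bile acid receptor Nr1h4, had no region within 15 kb in either list. As a check of the lists, 10 of 10 developmental regulators were called in both lists within 15 kb and 9 of 10 within 1 kb. The exception was Gata4, with its nearest regions at 1284 bp in AAV-Cre and 1574 bp in AAV-GFP. These regulators were listed as silent in liver, and their expression in the cell types of liver was not examined. Of 9 hepatocyte genes, 0 were called within 1 kb in either list and 1, Cyp2e1, was called within 15 kb in both, with 9 AAV-Cre regions and 1 AAV-GFP region. Of 10 genes of endothelial, immune, stellate and bile duct cells, 8 were called within 15 kb in AAV-Cre and 5 in AAV-GFP, and 7 and 5 within 1 kb. The shares over all genes within 1 kb are 24.6% in AAV-Cre and 17.1% in AAV-GFP.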

How the data were processed

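H3K27-me3 ChIP and input DNA were sequenced from livers of 2 mice per virus. The authors used the AQUAS histone pipeline with pooled inputs: reads were mapped to mm10 with BWA (0.7.13) and filtered with SAMtools (1.2) and Picard (1.126, versions from the submitters' processing notes), and peaks overlapping between replicates were kept. Each deposited list pools both replicates of its group, holds no counts, and leaves the depth of each library unknown. Narrow peaks split broad domains into several regions. Columns of the deposited lists hold a fold enrichment over input (a ratio), −log10 of a p-value, −log10 of a q-value and a display score from the authors' peak caller, with the score not used here. Folds of both lists are given for some genes. A difference between them is not read as a change in the mark, since depth and peak calling cannot be separated from it.

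Genes were those of GENCODE M21 on GRCm38 (mm10). A gene was called marked where a peak lay within 1 or 15 kb of a start site of a basic protein-coding transcript, or overlapped its body by at least 1 bp. The genes named were those with a region within 1 kb, those only in AAV-GFP, the hepatocyte groups, the 5 largest body covers per list, the 5 strongest only in AAV-Cre, and clusters, and others were named after their values were seen. The members, roles and lists were chosen with earlier results of these data known. Sequences are from RefSeq, and that of Abcg5, which was to be shown, is left out because it overlaps an annotated UTR. Of the marker genes, Tf was not found by name. Interval functions were checked on simulated data. Python 3.11.15, numpy 2.4.6, pandas 2.3.3, scipy 1.17.1 and matplotlib 3.10.9 were used. Some results are not reported here.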

Additional observations from a re-analysis of the deposited data

How the results depend on the processing

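The number of genes called was higher in AAV-Cre than in AAV-GFP in 8 of 8 settings within 15 kb, 6 of 6 within 1 kb and 6 of 6 over the body, including the values reported above, with ranges of 32 to 57 against 17 to 45, 21 to 24 against 10 to 15, and 35 to 37 against 16 to 26. The lists cover 73313622 bp in AAV-Cre and 14838020 bp in AAV-GFP, and shares over all genes are not given for the other settings. This order is therefore not read as particular to these families. Of 71 values from other settings, 61 were within 1.5 times the reported value and 10 were not. With peaks at a q-value of 0.05 or lower, 17 genes were called over the body only in AAV-Cre (11 as reported). At 0.01 or lower, AAV-GFP called 17 genes within 15 kb (29 as reported) and 16 over the body (26), and 22 (13) and 20 (11) were called only in AAV-Cre. With peaks of at least 300 bp, 21 were called within 15 kb only in AAV-Cre. These settings remove peaks, mostly from AAV-GFP. When AAV-Cre was cut to its 34586 strongest peaks, as many as AAV-GFP holds, 2 genes, Abca16 and Slc22a16, were called within 15 kb only in AAV-GFP, and 11 of the 13 genes only in AAV-Cre remained so, without Abcg2 and Slc22a2. A window of 5 kb gave 19 genes in AAV-GFP and a window of 50 kb gave 45. AAV-Cre regions counted as shared fell to 14 of 282 (89 as reported) when overlap with AAV-GFP was required over 0.5 or more of their width. No paired analysis was possible because each peak list pools both replicates, and for the same reason no replicate could be left out. The lists hold no counts, so depth sets an unknown limit on every call, and a missing call does not show that the mark is absent.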

Other observations

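Abcb5 had 17 AAV-Cre regions over 14.4% of its body and 11 AAV-GFP regions over 2.16%, while its start sites were 35018 and 36348 bp from the nearest region, so that it counted as marked over the body and not within 15 kb. Slco2a1, the prostaglandin transporter, had 2 AAV-Cre and 0 AAV-GFP regions over its body and none within 15 kb. Among the 48 genes with no region in window or body, the median distance to the nearest region was 85711.5 bp in AAV-Cre and 118115.5 bp in AAV-GFP.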
